A study of Tamarix ramosissima and Tamarix chinensis with 11 samples.

Results

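Well-watered leaves of *T. ramosissima* were compared with well-watered leaves of *T. chinensis*, using 5 of the 11 libraries of the series. The members were chosen by their labels as control plants, with 3 libraries of *T. ramosissima* and 2 of *T. chinensis*. The *T. chinensis* seedlings were grown from seed of an established stand in New Mexico and the *T. ramosissima* seedlings from seed of a stand in Montana. All 5 plants were 14 weeks old when they entered growth chambers at 25 °C, stood in shallow water throughout, and each gave leaf tissue for a library of its own. Controls were harvested together with the plants from which water was withheld, on day 10 in *T. chinensis* and on day 17 in *T. ramosissima*, when those plants wilted. Species, seed stand and day of harvest therefore differed together in every comparison below and cannot be told apart. Each species was represented by a single stand, and a further *T. chinensis* control was lost before sequencing. Species identity was determined by the authors with DNA fingerprints of seedlings from the same seed lots.

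*Tamarix*, the saltcedars, are shrubs and small trees of dry and saline river banks, with small scale-like leaves that carry salt-secreting glands. Both species were brought from Asia to North America, where they became invasive along rivers and hybridize widely. Related species can differ in the level at which a gene is transcribed, in which copies of a gene family they use, and in the sequence of the transcript itself. In an assembly built from the reads of both species, diverged versions of a gene can be kept apart as separate genes.

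A gene here is a group of contigs from the assembly that the authors built from all libraries, and its count is the number of sequenced fragments that the program RSEM assigned to it. The identifiers carry no gene names, so no pathway or marker list could be formed, and the labelled tissue was not checked against leaf markers. In a whole leaf, fewer cells of a type and less RNA per cell cannot be told apart. The control libraries held 11072258 to 15655241 fragments, so that a level of 1 CPM (the count scaled to 1000000 fragments per library) stood for 11.1 to 15.7 fragments. Of 117867 genes in the table, 13549 had a count of 0 in all 5 controls, and 28225 (23.9%) had a CPM above 1 in at least 2 controls and were tested. The 10 most abundant genes took 6.35% to 9.04% of a library, with the highest share in *T. ramosissima* control replicate 1, which also had the lowest scaling factor (0.857, against up to 1.06).

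*T. ramosissima* control replicate 1 stood apart from the other controls of its species. On log2(TPM + 1) values, where TPM is the level scaled for contig length and library size, its mean Euclidean distance was 176 to the other *T. ramosissima* controls and 156 to the *T. chinensis* controls. Replicates 2 and 3 of *T. ramosissima* lay 147 apart, and the *T. chinensis* controls 136 apart. The median SD of a gene on the log2(CPM + 1) scale was 0.153 in *T. chinensis* (n = 2) and 0.273 in *T. ramosissima* (n = 3), and 0.161 in *T. ramosissima* without replicate 1 (n = 2). Libraries of different species were 166 ± 9.36 apart (SD, 6 pairs) and libraries of the same species 159 ± 20.3 apart (SD, 4 pairs). The difference of 7.11 ranked 2 among the 10 arrangements of the species labels (exact permutation test, one-sided p = 0.2). The smallest p that 10 arrangements allow is 0.1, so this test could not reach 0.05. Without *T. ramosissima* replicate 1, the 4 distances between species (166 to 176) were all larger than the distances within *T. chinensis* (136) and within *T. ramosissima* (147). Replicate 1 was set aside here after these distances were seen. That outcome follows in part from the choice and is a description only.

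**Figure D1:**
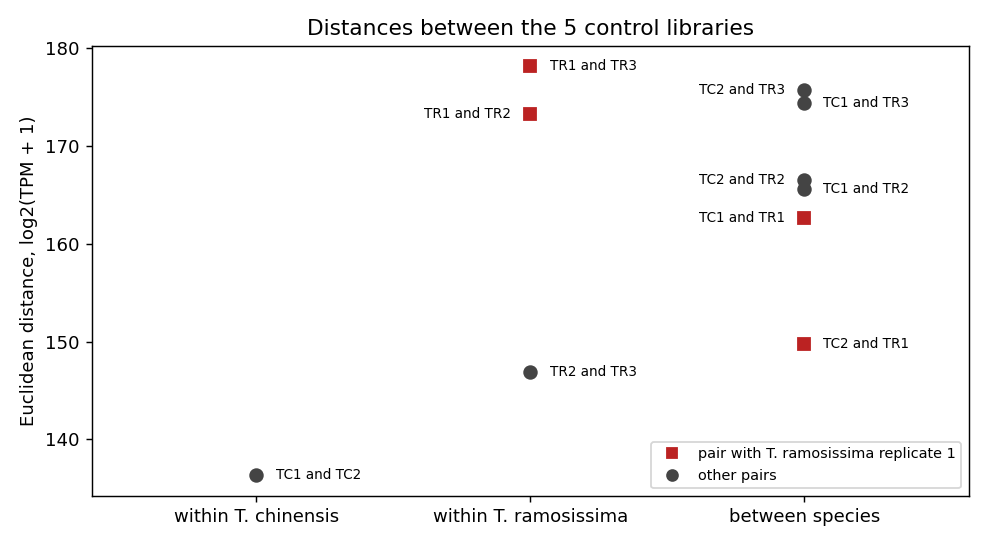
Euclidean distance between each pair of control libraries on log2(TPM + 1) values (y axis), grouped by whether the pair shares a species (x axis). TC and TR are *T. chinensis* and *T. ramosissima* with the replicate number. Red squares are pairs with *T. ramosissima* replicate 1, which lies 150 from *T. chinensis* replicate 2 but 173 and 178 from the other *T. ramosissima* controls. The y axis does not start at 0.

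The species label of that library was looked at with genes detected in a single species among the water deficit plants, which were other plants (rule chosen after seeing the data). Of 15 genes detected only in *T. ramosissima* there, 14, 15 and 14 had reads in *T. ramosissima* controls 1, 2 and 3, with summed levels of 82.2, 90.3 and 222 CPM. In the *T. chinensis* controls, 8 and 10 of them had reads, with summed levels of 7.04 and 7.6 CPM. Without the gene of this list with the most fragments, the sums were 41.1, 53.0 and 130 CPM in *T. ramosissima* and 6.95 and 7.47 CPM in *T. chinensis*. The median level was 0.93, 3.22 and 2.27 CPM in *T. ramosissima* controls 1, 2 and 3. Replicate 1 therefore lay above both *T. chinensis* controls on this list, but was the lowest *T. ramosissima* control. Of 14 genes detected only in *T. chinensis*, the *T. chinensis* controls had 14 and 14, with 58.1 and 109 CPM. The *T. ramosissima* controls had 12, 9 and 5, with 53.7, 19.7 and 18.7 CPM. These sums were also taken without the gene of the list that had the most fragments over all controls together. They were then 51.1 and 55.5 CPM in *T. chinensis* and 25.3, 19.4 and 2.88 CPM in *T. ramosissima*. Median levels on this list were 2.48 and 1.60 CPM in *T. chinensis* and 0.393, 0.170 and 0 CPM in *T. ramosissima* controls 1, 2 and 3. Replicate 1 lay below both *T. chinensis* controls in sum and median. It held more of the *T. chinensis* genes than either other library of its species.

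Each *T. ramosissima* control was then placed between the species in genes that the other 2 separated from *T. chinensis* by at least 1 on the log2 scale, a rule also chosen after seeing the data. A position of 0 is the *T. chinensis* mean and a position of 1 the mean of the other *T. ramosissima* controls. Replicate 1 had a median position of 0.373 in 367 genes higher in *T. ramosissima* and 0.445 in 250 genes lower. Replicate 2 had 0.703 in 161 and 0.759 in 137 genes, and replicate 3 had 0.781 in 166 and 1 in 115 genes. Choosing genes by the other 2 libraries draws the placed library towards *T. chinensis*. The mean used to place replicates 2 and 3 included replicate 1, and each library had its own list of genes. The positions are therefore not on an equal footing. Replicate 1 fell beyond both *T. chinensis* controls, on the *T. ramosissima* side, for 73.3% and 77.6% of its genes. Replicate 2 did so for 91.9% and 93.4%, and replicate 3 for 75.9% and 93.9%. The genes were also chosen for extreme levels in the *T. chinensis* controls, which draws any library to that side. These shares therefore cannot decide the label of replicate 1. Why its positions were lower was not tested. Counts of calls and of large differences are given with and without replicate 1 (sizes and classes without it were added after seeing the data).

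Few genes passed a test against the spread between replicates. The authors' strict thresholds for pairwise comparisons were an adjusted p (FDR) of at most 0.001 together with a log2 fold change of 2 or more in either direction. With these, edgeR's quasi-likelihood test called 0 of 28225 genes (0%), while 2348 genes (8.32%) had an unadjusted p under 0.05. At FDR 0.05 it called 5 DEG (0.0177% of those tested), of which 2 (0.00709%) were higher in *T. ramosissima* and 3 (0.0106%) higher in *T. chinensis*. With the strict thresholds, edgeR's exact test called 87 genes (0.308%), 52 (0.184%) of them higher in *T. ramosissima* and 35 (0.124%) higher in *T. chinensis*. DESeq2 called 71 (0.252%), 51 of them higher in *T. ramosissima*, and 58 genes were called by both tools. With limma-voom, 0 genes passed the strict thresholds and 1 passed FDR 0.05, while 2108 had an unadjusted p under 0.05. The number of species DEG thus moved from 0 to 87 with the test alone. The authors name edgeR but not which of its tests they used, so neither count stands for their result. Genes at an unadjusted quasi-likelihood p under 0.05 numbered 4351 (15.6%) without *T. ramosissima* control replicate 1, and 1242 (4.53%) and 988 (3.58%) without *T. chinensis* controls 1 and 2. Without either *T. chinensis* control the quasi-likelihood test called 0 genes at FDR 0.05, and without *T. ramosissima* control replicate 1 it called 55. The exact test called 27 and 29 genes without *T. chinensis* controls 1 and 2, and 380 without *T. ramosissima* control replicate 1.

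**Figure D2:**
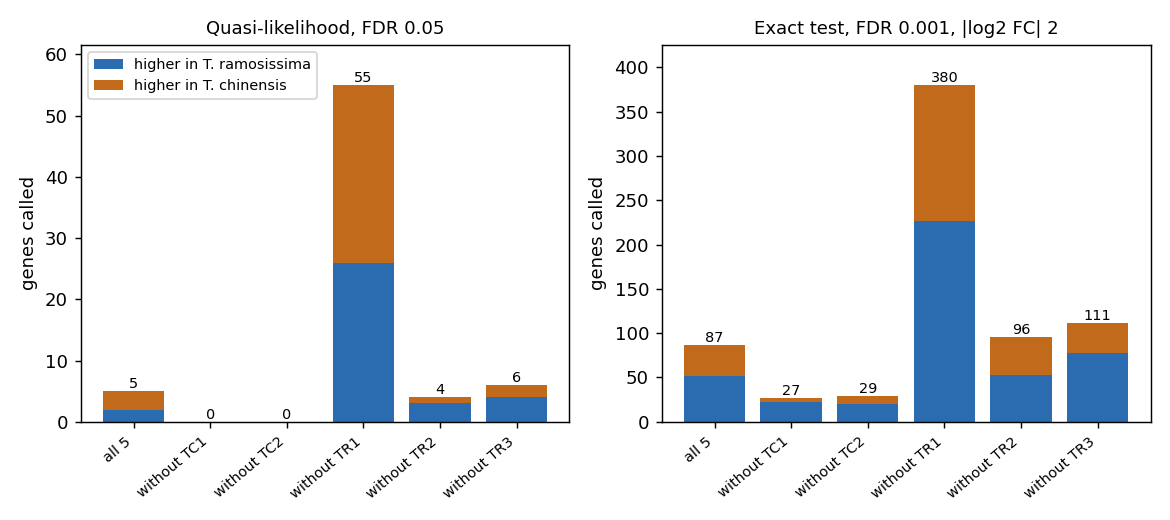
Number of genes called between the species with all 5 controls and without each library in turn, by the quasi-likelihood test at FDR 0.05 (left) and by the exact test with the strict thresholds, FDR 0.001 and log2 fold change 2 (right). Blue is higher in *T. ramosissima* and orange higher in *T. chinensis*. The highest bar in both panels is that without *T. ramosissima* replicate 1, with 55 and 380 genes.

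After scaling, most genes had close to the same level in both species. The median log2 fold change of *T. ramosissima* over *T. chinensis* was 0.02, and the middle 50% of genes lay between −0.19 and 0.27. The scaling assumes that most genes are unchanged, so a small median follows from it in part. With library size as the only scaling the median was −0.03. A difference of at least 1 on the log2 scale was fitted for 1733 genes higher in *T. ramosissima* and 930 higher in *T. chinensis* (9.43% of those tested together). Of these, 997 and 752 had groups that did not overlap in normalized CPM, which was so for 23.4% of all genes tested. A difference of at least 2 was fitted for 464 and 190 genes, of which 303 and 179 did not overlap. The larger number on the *T. ramosissima* side was uneven over plants, since replicate 3 was the highest library for 255 of the 464 genes, replicate 2 for 147 and replicate 1 for 62. On the *T. chinensis* side, replicates 1 and 2 were the highest for 98 and 92 genes. Without *T. ramosissima* replicate 1, a difference of at least 1 was fitted for 2069 genes higher in *T. ramosissima* and 1229 higher in *T. chinensis* (11.8% of 27923 tested). A difference of at least 2 was then fitted for 519 and 334 genes, and groups did not overlap for 47.2% of all genes. Groups of 2 and 2 libraries overlap less easily than groups of 2 and 3, so 47.2% and 23.4% are not alike. Groups this small are also often separated without a species difference.

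**Figure D3:**
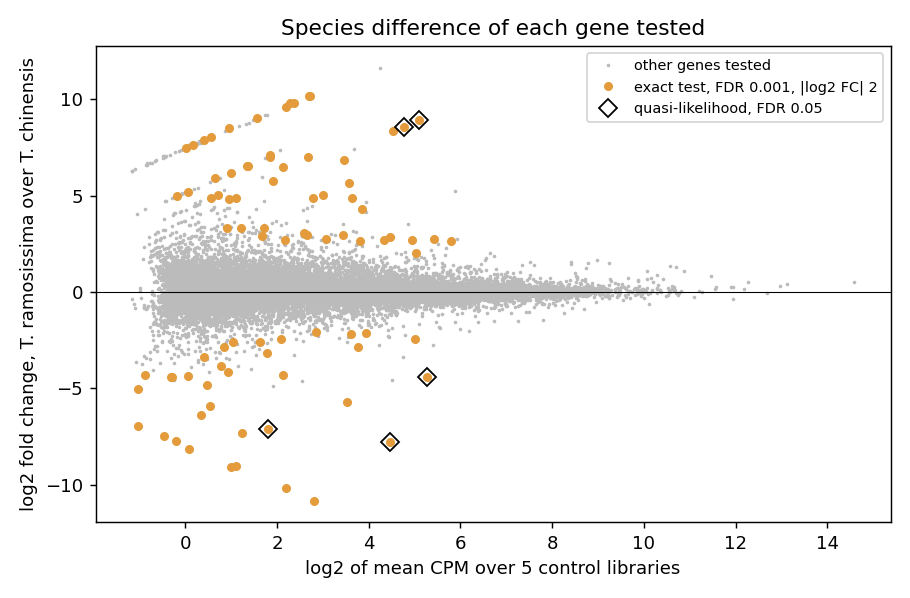
Log2 fold change of *T. ramosissima* over *T. chinensis* (y axis) against the log2 of mean CPM over the 5 controls (x axis) for each of the 28225 genes tested. Filled orange points are the 87 exact test calls and open diamonds the 5 quasi-likelihood calls. Calls lie at low and middle levels, and none lies above a mean of 100 CPM. Fold changes of genes with a count of 0 in a species depend on a prior count.

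Genes called by the exact test were mostly weakly expressed, while 4 of the 5 quasi-likelihood calls lay at 10 to 100 CPM and 1 under 10 CPM. Of 14136 genes under 10 CPM, 65 were called by the exact test (37 higher in *T. ramosissima*, 28 higher in *T. chinensis*), and 15 and 7 were called among 12231 genes of 10 to 100 CPM. None of 1858 genes of at least 100 CPM was called by the exact test with the strict thresholds or by the quasi-likelihood test at FDR 0.05. The share at an unadjusted quasi-likelihood p under 0.05 was 9.96% under 10 CPM and 6.91% at 10 to 100 CPM. It was 5.23% at 100 to 1000 CPM and 1.61% in the class of at least 1000 CPM, which held only 62 genes. The median absolute log2 fold change was 0.38 under 10 CPM, with a median standard error of 0.47. It was 0.13 at 100 to 1000 CPM and 0.17 from 1000 CPM, with median standard errors of 0.20 and 0.36. Without *T. ramosissima* replicate 1, the exact test called 321 genes under 10 CPM, 58 at 10 to 100 CPM and 1 above, and the quasi-likelihood test called 24, 29 and 2. The shares at an unadjusted p under 0.05 were then 17.3%, 14.0%, 13.8% and 3.85% in the same order of classes. The last class then held 52 genes. Among the 100 most abundant genes the log2 fold change lay between −0.65 and 1.33, with 4 genes past 1 in either direction, and 1 gene had an unadjusted p under 0.05. The 20 most abundant genes had log2 fold changes from −0.37 to 1.06 and a smallest unadjusted p of 0.0569 (edgeR quasi-likelihood). None of the 100 most abundant genes passed FDR 0.05 by the quasi-likelihood test, with all 5 controls or without *T. ramosissima* replicate 1, when 6 of them had an unadjusted p under 0.05.

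The 4 genes given in full were chosen as those with the smallest adjusted p in each direction at a mean of at least 10 CPM. Their function is not known from the files. Across the alternatives that tested it, TRINITY_DN29893_c0_g1 lost its call at FDR 0.05 under 5 of 17, and TRINITY_DN22326_c1_g1 under 7 of 17. For TRINITY_DN37804_c1_g3 the call was lost under 9 of 15. TRINITY_DN37827_c0_g1 lost its call under 4 of 18 alternatives. Its level was 86.8 and 94.7 CPM in the *T. chinensis* controls and 2.78, 5.26 and 4.62 CPM in *T. ramosissima* controls 1, 2 and 3. All 3 *T. ramosissima* plants were far below both *T. chinensis* plants. The means were 90.7 ± 5.57 (SD, n = 2) and 4.22 ± 1.28 CPM (SD, n = 3), with a log2 fold change of −4.39 (SE 0.21, adjusted p = 0.00279 by edgeR's quasi-likelihood test with Benjamini-Hochberg adjustment). It was the only gene that limma-voom also called at FDR 0.05 (adjusted p = 0.0179). Its adjusted p was 0.0816 and 0.118 by the quasi-likelihood test without *T. chinensis* control 1 or 2, and at most 0.0230 without any single *T. ramosissima* control.

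The species difference of TRINITY_DN37827_c0_g1 was smaller in TPM, which divides by the length of the contigs used. The mean was 23.3 ± 2.53 TPM (SD, n = 2) in *T. chinensis* and 2.97 ± 0.793 TPM (SD, n = 3) in *T. ramosissima*, a ratio of 7.85 against 21.5 in CPM. Its effective length, the count divided by TPM and set relative to the median gene of the library, was 3.01 and 2.85 in *T. chinensis*, against 0.850, 1.42 and 0.879 in *T. ramosissima*. The effective length was thus 2.87 times as long in *T. chinensis*. It was not tested for this gene, which had 39 fragments in *T. ramosissima* control 1, under the minimum of 50 used for that test. Counts summed over the 6 genes of its assembly cluster differed by −4.22 (SE 0.20, adjusted p = 0.00207, edgeR quasi-likelihood), since the other genes of the cluster were nearly silent in all 5 controls.

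Both named genes that were higher in *T. ramosissima* were nearly absent from *T. chinensis* controls. TRINITY_DN29893_c0_g1 had 1 and 2 fragments in the *T. chinensis* controls, or 0.0903 and 0.128 CPM, and 32.0, 68.5 and 36.2 CPM in the *T. ramosissima* controls. The ratio of pooled levels was 396 with a 95% counting interval of 135 to 1922 (adjusted p = 0.00279, edgeR quasi-likelihood). TRINITY_DN22326_c1_g1 likewise had 1 and 2 fragments in *T. chinensis*, and 41.1, 37.3 and 92.6 CPM in *T. ramosissima*. Its ratio was 511 with an interval of 175 to 2481 (adjusted p = 0.00737, edgeR quasi-likelihood). Every *T. ramosissima* plant, replicate 1 included, was above 30 CPM for both genes. These intervals cover counting error only. Each gene was the only one of its assembly cluster. Without *T. chinensis* control 1 or 2, the adjusted p was 0.442 and 0.447 for TRINITY_DN29893_c0_g1 and 0.614 and 0.733 for TRINITY_DN22326_c1_g1 (edgeR quasi-likelihood).

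TRINITY_DN37804_c1_g3 had 34.7 and 75.2 CPM in the *T. chinensis* controls and 0, 0.763 and 0 CPM in the *T. ramosissima* controls. The ratio of pooled levels was 253 with a 95% counting interval of 133 to 555 (adjusted p = 0.0372, edgeR quasi-likelihood, and 0.116 by DESeq2). Leaving out *T. ramosissima* control 1, 2 or 3 gave an adjusted p of 0.0562, 0.225 and 0.112, and without either *T. chinensis* control the gene did not pass the filter on low levels. The fifth DEG, the remaining one higher in *T. chinensis*, had 9.57 and 7.79 CPM there and 0.0714, 0.0848 and 0 CPM in *T. ramosissima*, a ratio of 166 with an interval of 45.5 to 1382 (adjusted p = 0.00501, edgeR quasi-likelihood). It was under the level set for naming. Its adjusted p was 0.135 without *T. ramosissima* control 2, and it did not pass the filter without either *T. chinensis* control. Both genes were thus near silent in every *T. ramosissima* control, but at FDR 0.05 the call depended on single libraries.

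**Figure D4:**
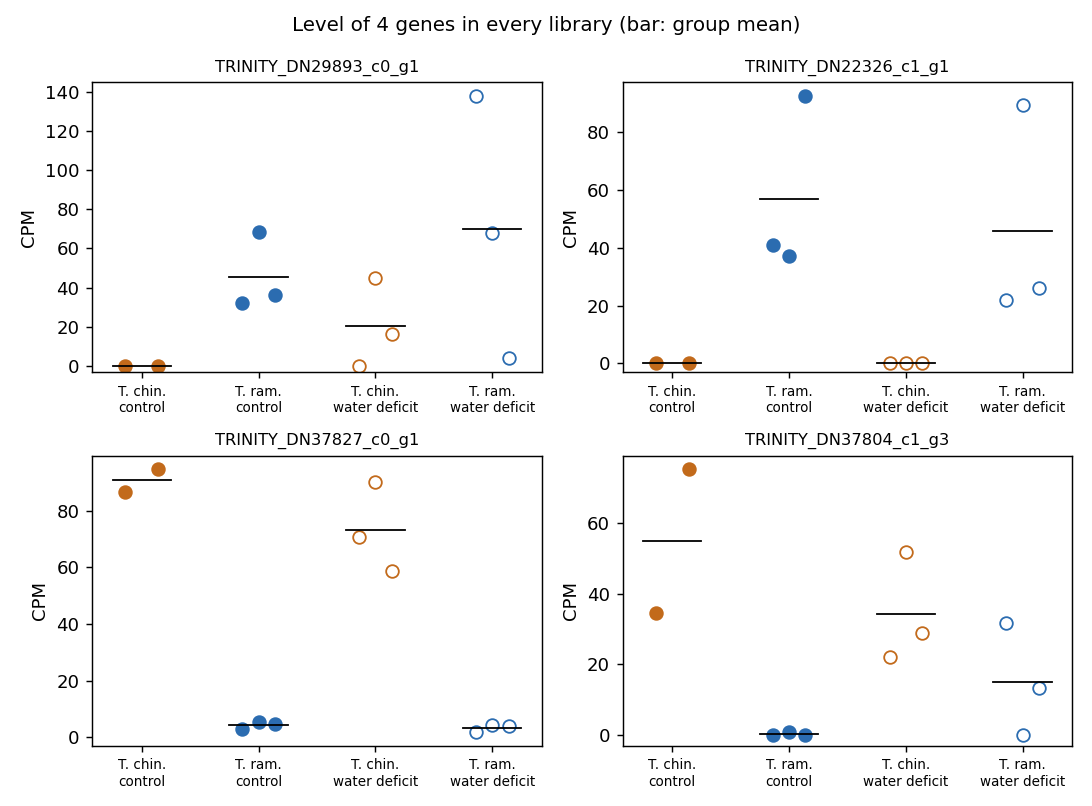
CPM of 4 genes (y axis) in the control libraries (filled circles) and in the water deficit libraries (open circles) of both species, 1 circle per plant, with the group mean as a bar. TRINITY_DN22326_c1_g1 and TRINITY_DN37827_c0_g1 keep the species apart under both treatments. TRINITY_DN29893_c0_g1 and TRINITY_DN37804_c1_g3 overlap between the species under water deficit.

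The water deficit libraries, which share no plant with the controls, separated the species for some of these genes, while others overlapped. TRINITY_DN22326_c1_g1 was at 0 in all 3 *T. chinensis* water deficit plants and at 22, 89.5 and 26 CPM in *T. ramosissima* (adjusted p = 0.0219, edgeR quasi-likelihood). TRINITY_DN37827_c0_g1 was at 70.8, 90.0 and 58.8 CPM in *T. chinensis* and at 1.92, 4.46 and 3.94 CPM in *T. ramosissima*, a log2 fold change of −4.42 (adjusted p = 0.0110, edgeR quasi-likelihood). The groups of these genes did not overlap. The fifth DEG was at 0.683, 0.917 and 2.98 CPM in *T. chinensis* and at 0 in all 3 *T. ramosissima* plants, and was not tested there. These *T. chinensis* levels were below those of its controls, 9.57 and 7.79 CPM. TRINITY_DN29893_c0_g1 was at 0, 45.2 and 16.4 CPM in *T. chinensis* and at 138, 67.8 and 4.36 CPM in *T. ramosissima* (adjusted p = 0.507, edgeR quasi-likelihood). TRINITY_DN37804_c1_g3 was at 22.1, 51.7 and 28.9 CPM in *T. chinensis* and at 31.7, 0 and 13.3 CPM in *T. ramosissima* (adjusted p = 0.539, edgeR quasi-likelihood). For both genes a water deficit plant of the species that was near silent in the controls reached the range of the other species. A test of the difference between the species differences, in a model with species and treatment, gave adjusted p of 0.302 and 0.164 for these genes and 0.763 and 0.999 for TRINITY_DN22326_c1_g1 and TRINITY_DN37827_c0_g1 (edgeR quasi-likelihood). In 1 fit of all 4 groups, the difference between the controls had an adjusted p of 0.400 for TRINITY_DN29893_c0_g1, 0.20 for TRINITY_DN37804_c1_g3, 0.0506 for TRINITY_DN22326_c1_g1 and 0.00179 for TRINITY_DN37827_c0_g1 (edgeR quasi-likelihood). The call between the controls was thus lost for 3 of the 4 named genes in that fit.

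Over all calls, the direction in the water deficit plants was mostly that of the controls. Of the 87 exact test calls, 69 were tested in the water deficit plants, and 68 (98.6%) had the same sign, against 62.5% of all 26475 genes tested in both. With the same sign, 27 (39.1%) passed FDR 0.05 there by the quasi-likelihood test and 0 passed with the opposite sign, against 4.17% of all genes with the same sign. In the water deficit plants themselves, 1622 of 28854 genes (5.62%) passed. The groups were separated in the same direction, in CPM, in the water deficit plants for 60 of the 87 calls (69.0%). Among all genes this share was 20.6%. The median absolute log2 fold change in the controls was 4.39 for the calls and 0.21 for all genes. These shares are therefore not compared at a like size of difference. Of the 55 quasi-likelihood calls without *T. ramosissima* control replicate 1, 47 were tested and 43 (91.5%) had the same sign. Of the 380 exact test calls without it, 286 were tested and 259 (90.6%) had the same sign.

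The 87 exact test calls ranged from genes without a read in 1 species to genes expressed in both. The lower species had a pooled count of 0 for 19 of them, of 1 to 3 for 26 and above 3 for 42, and 12 of these 42 had a pooled count above 100. The mean level in the higher species was 1.19 to 90.7 CPM, with a median of 7.87 CPM for the 52 genes higher in *T. ramosissima* and 4.96 CPM for the 35 higher in *T. chinensis*. All 87 had groups that did not overlap, against 23.4% of genes tested, and the exact test had chosen them on the same libraries. In the quasi-likelihood fit all 87 had an unadjusted p under 0.05, and 5 had an adjusted p under 0.05.

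Genes detected in a single species were also few. With a count of at least 10 in every control of 1 species and 0 in every control of the other, 13 genes were found in *T. ramosissima* and 9 in *T. chinensis*. The mean level was 1.67 to 11 CPM (median 4.96) for those in *T. ramosissima*, which was at least 14.9-fold to 97.8-fold above a floor of 3 counts over the *T. chinensis* controls. It was 1.08 to 17.4 CPM (median 2.66) for those in *T. chinensis*, at least 14.0-fold to 227-fold above a floor of 3 counts over the *T. ramosissima* controls. The exact test called 10 of the 13 and 8 of the 9 with the strict thresholds, and the quasi-likelihood test called 0 of the 22 at FDR 0.05, although the 21 genes tested all had an unadjusted p under 0.05. In the water deficit plants, 12 of the 13 had reads in all 3 *T. ramosissima* plants and 6 had none in any *T. chinensis* plant. Of the 9, 6 had reads in all 3 *T. chinensis* plants and 5 had none in any *T. ramosissima* plant. At least 10 fragments in a water deficit plant of the other species were found for 2 of the 13 and 2 of the 9. For 1 of the 13 this was so in all 3 plants of the other species. The gene of the 9 with the highest mean, 17.4 CPM, had 143 fragments in 1 *T. ramosissima* water deficit plant. It had 15 over the 3 *T. chinensis* water deficit plants. The full rule, at least 10 in all 3 plants of the species and 0 in all 3 of the other, was met again by 2 of the 13 and 1 of the 9. The count of 22 rose to 94 and 69 without *T. chinensis* controls 1 and 2, and to 99, 47 and 42 without *T. ramosissima* controls 1, 2 and 3, since fewer libraries then had to meet the rule. Those detected in *T. ramosissima* and in *T. chinensis* were then 32 and 62, and 46 and 23, without a *T. chinensis* control. They were 48 and 51, 22 and 25, and 31 and 11 without a *T. ramosissima* control, so the species with more such genes changed with the library left out.

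Contigs of the same assembly cluster, which share an identifier up to the last part, can hold versions of a gene. Of the genes tested, 12683 (44.9%) lay in a cluster with another tested gene, and of the exact test calls, 35 of 52 higher in *T. ramosissima* and 11 of 35 higher in *T. chinensis* did. At FDR 0.05 by the exact test, 186 of 360 calls (1.28% of those tested) lay in such a cluster. The quasi-likelihood test found 0 clusters with a gene called in each direction, and the exact test found 5. With a log2 fold change of at least 1 in each direction, 62 clusters were found, of which 26 held genes whose groups did not overlap. Without *T. ramosissima* replicate 1, the exact test found 21 clusters, the quasi-likelihood test 0, and the rule on log2 fold changes 86.

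The 5 clusters were chosen for genes called in opposite directions on the same libraries, so that the opposite directions and a partly cancelling sum follow from the choice, and their values are a description. In the cluster of TRINITY_DN37804_c1_g3, the partner gene was at 17.0 and 3.96 CPM in *T. chinensis* and at 54.7, 67.1 and 73.1 CPM in *T. ramosissima*. The sum of both genes was 51.7 and 79.1 CPM in *T. chinensis* and 54.7, 67.8 and 73.1 CPM in *T. ramosissima*, a ratio of means of 0.997. Counts over the whole cluster gave a log2 fold change of 0.03 (SE 0.16, adjusted p = 0.990, edgeR quasi-likelihood). The cluster as a unit thus differed by less than its standard error, although TRINITY_DN37804_c1_g3 was among the 5 DEG. In another cluster a gene at 0 in both *T. chinensis* controls was at 9.71, 13.9 and 9.31 CPM in *T. ramosissima*, beside a partner at 18.7 and 19.8 CPM in *T. chinensis* and 4.28, 6.44 and 4.24 CPM in *T. ramosissima*. Their sums gave a ratio of 0.829. Under water deficit, the gene at 0 in the *T. chinensis* controls had at least 10 fragments in each of the 3 *T. chinensis* plants. It had 255 fragments over these plants and 417 over the 3 *T. ramosissima* plants. The ratios of the sums in the other clusters were 2.15, 0.436 and 1.22, and none of the 5 clusters passed FDR 0.05 (adjusted p from 0.399 to 0.990, edgeR quasi-likelihood).

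**Figure D5:**
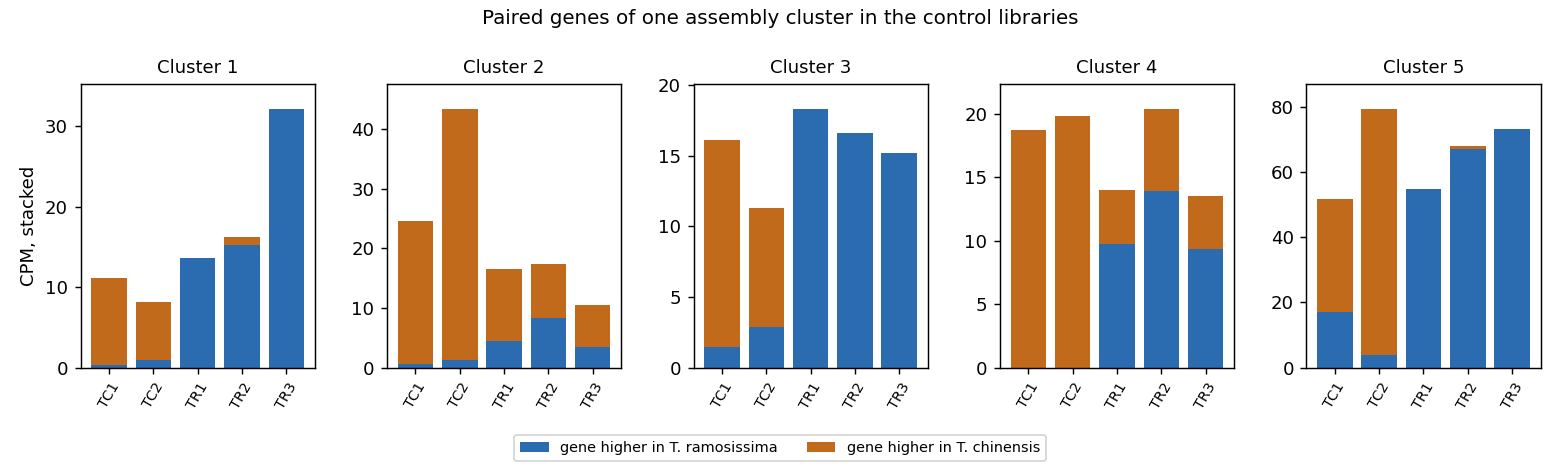
CPM of the paired genes (y axis, stacked) in each control library (x axis, TC for *T. chinensis* and TR for *T. ramosissima*) for the 5 assembly clusters with genes called in opposite directions by the exact test. Blue is the gene higher in *T. ramosissima* and orange the gene higher in *T. chinensis*. In the panel of Cluster 5, which holds TRINITY_DN37804_c1_g3, the total bar is 51.7 to 79.1 CPM in every library while the colours change places.

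With counts summed per cluster, 3 of 21448 clusters (0.014%) passed FDR 0.05 by the quasi-likelihood test, 2 of them higher in *T. ramosissima*. They were those of TRINITY_DN29893_c0_g1, TRINITY_DN22326_c1_g1 and TRINITY_DN37827_c0_g1. An unadjusted p under 0.05 was found for 1707 clusters (7.96%), and the exact test called 220 at FDR 0.05. Without either *T. chinensis* control 0 clusters passed, and without *T. ramosissima* control replicate 1, 12 passed.

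Which contigs of a gene were used was compared through effective length, which does not depend on the gene's level. Of 16397 genes with a count of at least 50 and a TPM of at least 1 in all 5 controls, limma called 0 at FDR 0.05 (0%), where 0.131 was the smallest adjusted p and 1989 genes (12.1%) had an unadjusted p under 0.05. Groups did not overlap for 6804 genes (41.5%), and the fragment length of a library also moves this measure, which was not tested separately. A length at least 2-fold apart without overlap was found in 28 genes, of which 15 were longer and 13 shorter in *T. ramosissima*. Of these, 19 had a length in the water deficit plants, where 16 (84.2%) had the same sign, against 75.4% of 13950 genes, and 7 were again at least 2-fold apart. The level also differed at an unadjusted p under 0.05 in 9 of the 28 (32.1%), against 6.21% of all genes with a length. The 28 were chosen for a large length difference, so the share with the same sign is not compared at a like size.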

How the data were processed

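Leaf RNA was sequenced as read pairs from 1 plant per library. The authors trimmed the reads, assembled those of both species with Trinity and estimated abundance with RSEM (its version: not given in the sources used here). Expected counts (estimated fragments per gene) were deposited by the authors without normalization, and 3.52% to 4.00% of them were not whole in a control library. The deposited TPM come from the same RSEM run of the authors. No genome was used, and fragments that fit several contigs were shared out before deposit.

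Counts were rounded and tested in R 4.3.3 with edgeR 4.0.16 (TMM, quasi-likelihood test, Benjamini-Hochberg adjustment over all genes tested), keeping genes whose CPM exceeded 1 in 2 or more of the 5 controls. A standard error is the fold change over the root of its F statistic. Also run were the exact test of edgeR, DESeq2 1.42.0, limma 3.58.1 (voom and trend on TPM), other scalings and filters, thinning, the replicate number as a block and each library left out. Where 1 *T. chinensis* control remained, it was assumed to vary like the *T. ramosissima* controls. Effective length was tested with limma. Genes were named by the smallest adjusted p in each direction, 2 each, among genes with groups that do not overlap and a mean of at least 10 CPM. The quasi-likelihood, exact, DESeq2, voom and effective length tests (the last without its trend) were tested on simulated data, and limma-trend on TPM was not. The members, rules and lists were chosen with earlier results of these data known. Counts of 11072258 to 15655241 fragments per control give a gene at 1 CPM a large counting error. Pathways, markers and sequences were not analysed here, since no identifier used here has a gene name or sequence beside it.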

Additional observations from a re-analysis of the deposited data

How the results depend on the processing

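No named gene changed sign under the alternatives run, but which species had more called or detected genes did change. With the strict thresholds, the count of 0 DEG became 87 with edgeR's exact test, 71 with DESeq2 and 3 with no filter beyond a count above 0, and 0 to 2 with a library left out. At FDR 0.05, the 5 DEG became 360 with the exact test, 366 with DESeq2, 1 with limma-voom, 2 with limma-trend on log2(TPM + 0.1), 2 with the legacy quasi-likelihood fit, 13 without the filter, 1 with a CPM above 1 in all 5 controls and 0 to 55 with a library left out. With library size as the only scaling there were 9, of which 2 were higher and 7 lower in *T. ramosissima*, against 2 and 3 with all 5 controls. The split was 3 higher and 2 lower in 1 fit of all 4 groups, where 3 of the 4 named genes lost the call, 3 and 1 with limma-trend on log2(TPM + 1), and 211 and 149 with the exact test. The 22 genes detected in a single species became 59 and 12 with a minimum count of 5 and 20, 45 with at most 1 count allowed in the other species, and 42 to 99 with a library left out. The 3 that met the rule again under water deficit became 6 and 1 with these minimum counts. The exact test gave 5 clusters with opposite genes in place of 0 and 220 called clusters in place of 3, which became 0 to 12 with a library left out. The cause of these differences was not tested, apart from the rule for a single species, which fewer libraries or a lower minimum meet more easily.

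With the replicate number as a block there were 5 DEG at the strict thresholds and 104 at FDR 0.05 (70 higher and 34 lower in *T. ramosissima*), and 0 genes by effective length. The groups share only numbers 1 and 2, and deviations from the group means correlated at −0.0712 and −0.00174 for the same number. With 2 *T. chinensis* controls their deviations mirror each other, so this cannot decide whether the numbers pair the plants. With 2 and 3 plants, 1 of which stood apart from its group, and a median standard error of 0.47 on the log2 scale under 10 CPM, small differences of weakly expressed genes were not detectable.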
